A study of Homo sapiens with 9 samples.

Results

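The comparison set IRF2 knockout cells of the human monocytic line U937 against the wild type cells of the same line, measured by RNA-seq. Its members were chosen by genotype label alone: 3 IRF2KO libraries and 3 WT libraries, 6 of the 9 libraries of the series. The other 3, IRF2KO_pIRF2, entered the model as part of 1 shared estimate of the spread between replicates, and their differences from the other groups were not tested. U937 is an established line grown from a histiocytic lymphoma that keeps many traits of an immature monocyte, and the cells of the series were U937-Cas9 cells, which carry the Cas9 nuclease. All IRF2KO and WT libraries share that background; no stimulus or interferon treatment is named for any of them. RNA was isolated with a Macherey Nagel kit and turned into libraries with the Lexogen SENSE mRNA-Seq kit, version 2. The labels do not say which exon was edited, whether the knockout is 1 clone or a pool, or whether the replicates were separate cultures, so the p-values below measure only the spread between these libraries, which may be technical.

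Interferon regulatory factors are transcription factors that recognise repeats of GAAA in promoters and enhancers. IRF1, and IRF9 together with STAT proteins, carry the response to interferon, whereas IRF2 is made in resting cells, was first described as an antagonist of IRF1 at interferon-responsive promoters, and is also known as an activator of some genes, among them the pore-forming gasdermin D gene in mouse macrophages. In cells of the monocyte lineage the genes with such promoters include those for inflammatory caspases, antigen processing and antiviral defence.

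Of 11517 genes tested, 48 changed between IRF2KO and WT cells at an adjusted p under 0.05 (quasi-likelihood F-test of edgeR, p-values adjusted by Benjamini and Hochberg), which is 0.417% of those tested. Among them 42 genes fell, 0.365% of those tested, and 6 rose, 0.0521%. The genes that fell included the immunoproteasome subunit PSMB9, the peptide trimmer ERAP2, the inflammatory caspases CASP4 and CASP1, the butyrophilins BTN3A1, BTN3A2 and BTN3A3, the E1 and E2 enzymes of ISG15 conjugation, UBA7 and UBE2L6, the pair SAMD9 and SAMD9L, and RNA sensors such as IFIH1. The gene that rose with the smallest p was MT2A, a metallothionein. A second tool, DESeq2, called 121 genes, 69 of them lower and 52 higher, and a fit with trends in GC content and gene length removed called 106, 65 lower and 41 higher, so the share of rises among the calls depended on the method.

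The promoter sequences of several of the genes that fell are given first, since repeats of GAAA are what IRF proteins are known to recognise. Each stretch lies before the transcription start as RefSeq gives it on GRCh38.p14, is written 5′ to 3′ along the strand of the gene, and has in capitals every match to GAAANNGAA on either strand, where N is any base. The windows searched ran from 250 bases before to 50 bases after the start. The first 10 are the called genes with the smallest p among those with a match that lies wholly before the start. Called genes whose matches lie only at or after the start, PSME1, DTX3L, BTN3A3 and FAM111A among them, are not shown.
PARP14, chr3:122680765-122680838, plus strand: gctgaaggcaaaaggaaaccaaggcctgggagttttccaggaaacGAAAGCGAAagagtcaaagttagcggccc
SAMD9, chr7:93118062-93118160, minus strand: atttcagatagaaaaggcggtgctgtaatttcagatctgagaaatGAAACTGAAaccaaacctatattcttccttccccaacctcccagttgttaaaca
GIMAP2, chr7:150685559-150685657, plus strand: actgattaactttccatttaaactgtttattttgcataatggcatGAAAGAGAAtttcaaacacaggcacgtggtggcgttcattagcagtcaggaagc
ERAP2, chr5:96876425-96876499, plus strand: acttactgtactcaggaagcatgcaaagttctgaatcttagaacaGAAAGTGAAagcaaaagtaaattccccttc
IFIH1, chr2:162318685-162318750, minus strand: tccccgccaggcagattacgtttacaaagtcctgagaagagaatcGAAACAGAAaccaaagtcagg
C19orf66, chr19:10086229-10086316, plus strand: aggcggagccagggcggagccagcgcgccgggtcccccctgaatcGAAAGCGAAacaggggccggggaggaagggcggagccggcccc
IFI6, chr1:27672232-27672330, minus strand: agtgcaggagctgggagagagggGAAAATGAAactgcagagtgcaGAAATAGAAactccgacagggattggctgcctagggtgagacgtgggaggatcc
OAS3, chr12:112938417-112938473, plus strand: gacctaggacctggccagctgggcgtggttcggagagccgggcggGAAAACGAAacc
DDX60, chr4:168318753-168318850, minus strand: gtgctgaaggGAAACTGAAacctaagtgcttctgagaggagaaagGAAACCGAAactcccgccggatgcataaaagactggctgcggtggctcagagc
DDX60L, chr4:168480493-168480587, minus strand: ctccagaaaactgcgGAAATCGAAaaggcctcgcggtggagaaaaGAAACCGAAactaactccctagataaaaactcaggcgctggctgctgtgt

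In PARP14, ERAP2, IFIH1, C19orf66 and OAS3 the match shown began within 50 bases of the start, at positions -29, -30, -21, -43 and -12, counted from the first transcribed base. DDX60, DDX60L and IFI6 each held a pair of matches in the stretch shown. The next 3 are the called genes with the smallest p whose windows hold no match; the 100 bases before the start are shown, and the absence says only that these letters are not in the window.
PSMB9, chr6:32854092-32854191, plus strand: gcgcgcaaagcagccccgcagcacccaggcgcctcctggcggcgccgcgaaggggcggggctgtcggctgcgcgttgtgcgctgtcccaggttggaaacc
CASP4, chr11:104968575-104968674, minus strand: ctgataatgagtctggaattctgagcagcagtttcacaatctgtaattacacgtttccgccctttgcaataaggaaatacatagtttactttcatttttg
UBE2L6, chr11:57567936-57568035, minus strand: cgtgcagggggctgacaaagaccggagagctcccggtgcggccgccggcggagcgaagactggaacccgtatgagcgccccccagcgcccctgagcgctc

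The last 3 are members of the interferon-related lists used here that hold the motif wholly before the start and did not pass the test. They were chosen for the highest mean CPM (reads per gene relative to library size). Those lists include the one of inflammatory caspases and pyroptosis, which holds CARD8, and membership does not show a response to interferon. In B2M and BST2 a pair of matches shares bases, so that the capitals form 1 longer run, and in CARD8 the match is on the opposite strand and is written as its reverse complement.
B2M, chr15:44711334-44711432, plus strand: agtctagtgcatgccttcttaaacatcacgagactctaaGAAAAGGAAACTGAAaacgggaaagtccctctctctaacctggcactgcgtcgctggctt
BST2, chr19:17405701-17405799, minus strand: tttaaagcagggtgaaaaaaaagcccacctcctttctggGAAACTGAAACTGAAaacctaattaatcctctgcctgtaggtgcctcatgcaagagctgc
CARD8, chr19:48249634-48249723, minus strand: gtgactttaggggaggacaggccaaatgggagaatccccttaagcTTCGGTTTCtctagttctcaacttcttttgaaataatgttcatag

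The levels below are CPM after TMM scaling, in the order of replicates 1, 2 and 3 of each group; fold changes are log2 values of IRF2KO minus WT with the standard error of the fit, and a gene is said to have risen or fallen only where its adjusted p was under 0.05. CPM are not divided by gene length, so levels are compared between libraries and not between genes.

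The 9 libraries held 14824907 to 23108288 counts, and 3 counts, the smallest number read here as a signal, stood for 0.129 to 0.196 CPM. Mitochondrially encoded genes took 12.2%, 18.8% and 18.0% of the counts in IRF2KO and 12.7%, 12.9% and 17.1% in WT. The first principal component, 56.4% of the variance, did not separate the groups: WT replicate 1 and IRF2KO replicate 2 lay at its ends, at -36.1 and 52.3, with the other 7 libraries between -14.5 and 6.54. Within each group, no 2 libraries agreed to within sampling noise, with chi-square per degree of freedom from 3.05 to 90.0. The labelled cell type fitted its markers in part. CD33, CD4, ITGB2, SPI1, CEBPA, LYZ and FCER1G had at least 36.9 CPM in every library, whereas CD14 had 1 count in the 6 libraries together, and MPO stayed under 1 CPM. ITGAM had 0.907 to 1.72 CPM in IRF2KO and 0.653 to 1.75 CPM in WT, and CSF1R had 0.963 to 1.07 CPM in IRF2KO and 0.618 to 1.34 CPM in WT. FCGR1A had 4.81 to 6.06 CPM in IRF2KO and 4.67 to 6.53 CPM in WT, and TYROBP had 5.35 to 7.89 CPM in IRF2KO and 3.85 to 4.57 CPM in WT. Of the defining genes of other lineages, CD3D, CD3E, MS4A1, HBB, HBA1, GYPB, EPCAM and COL1A2 were at 0 in all 6 libraries, while NKG7, PAX5, CD79A and EPOR were among those detected; their place in each list is given below.

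IRF2, the targeted gene (chr4:184387713-184474580, minus strand, GRCh38), had 23.5, 25.9 and 25.5 CPM in IRF2KO, against 37.1, 39.1 and 44.1 CPM in WT. All IRF2KO libraries lay below all WT libraries, yet the knockout kept 62.2% of the WT level (log2 fold change -0.68 ± 0.13, edgeR adjusted p = 0.043). A count over the whole gene does not show whether the transcripts still encode the protein, and the site of the edit is not named in the labels, so this count is a weak check of the genotype label. In bulk libraries such as these, fewer cells with a transcript and less of it per cell cannot be told apart. IRF2 lost its call in 11 of 18 alternatives, among them without any 1 WT library, IRF2KO replicate 1 or 3 or any 1 IRF2KO_pIRF2 library, with only the 6 IRF2KO and WT libraries in the fit and with GC and length trends removed (log2 fold change -0.74 to -0.52, adjusted p = 0.061 to 0.22). DESeq2 kept it (adjusted p = 6.3e-05).

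The other interferon regulatory factors did not pass the test, and the 10 tested of the 12 listed had a median log2 fold change of 0.14, against -0.01 over all tested genes. IRF1, the activator that IRF2 is known to oppose, had 7.93, 8.86 and 7.89 CPM in IRF2KO, against 5.41, 5.42 and 8.32 CPM in WT (log2 fold change 0.36 ± 0.19, edgeR adjusted p = 0.28). IRF8, a lineage factor of monocytes, had 207, 191 and 184 CPM in IRF2KO, against 210, 219 and 211 CPM in WT (log2 fold change -0.14 ± 0.09, edgeR adjusted p = 0.36). IRF9 had no count in any of the 6 libraries, with 48.4% of its exonic bases shared with other annotated genes. The co-repressor genes IRF2BP1 and IRF2BP2, whose products bind IRF2, had log2 fold changes of 0.59 ± 0.21 and -0.13 ± 0.09 and did not pass.

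**Figure D1:**
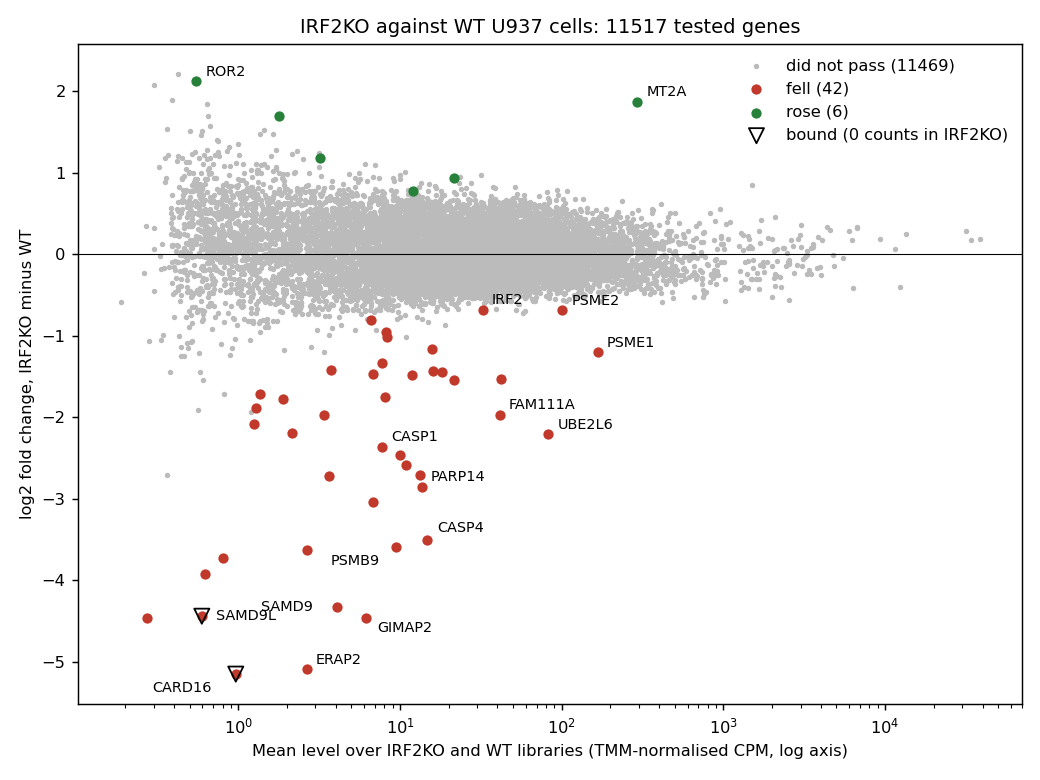
Each point is 1 of the 11517 tested genes, with its mean over the IRF2KO and WT libraries (TMM-normalised CPM, log axis) on the x axis and its log2 fold change, IRF2KO minus WT, on the y axis; red points fell, green points rose, and open triangles mark the 2 genes with 0 counts in IRF2KO, drawn at their bound. The 42 genes that fell reach -5.15 and the 6 that rose reach 2.12, with the grey cloud of genes that did not pass centred on -0.01.

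The size of the falls varied widely. Of the 42 genes, 38 fell by more than 2-fold, 21 by more than 4-fold and 12 by more than 8-fold, and the median over the 42 was -2.03. The IRF2KO libraries kept a median of 24.1% of the WT level of these genes, and 2 genes, CARD16 and SAMD9L, had 0 counts in all 3 IRF2KO libraries. For each of the 48 genes, the IRF2KO and the WT libraries did not overlap. The test that picked these genes used the same libraries, so this separation adds no further support. Among all tested genes all IRF2KO libraries lay below all WT libraries for 8.23% and above them for 8.97%. In 18 alternative fits 30 of the 48 genes passed every time, 29 that fell and MT2A, while 18 were lost at least once; each of those is given below with the libraries whose omission ended its call.

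**Figure D2:**
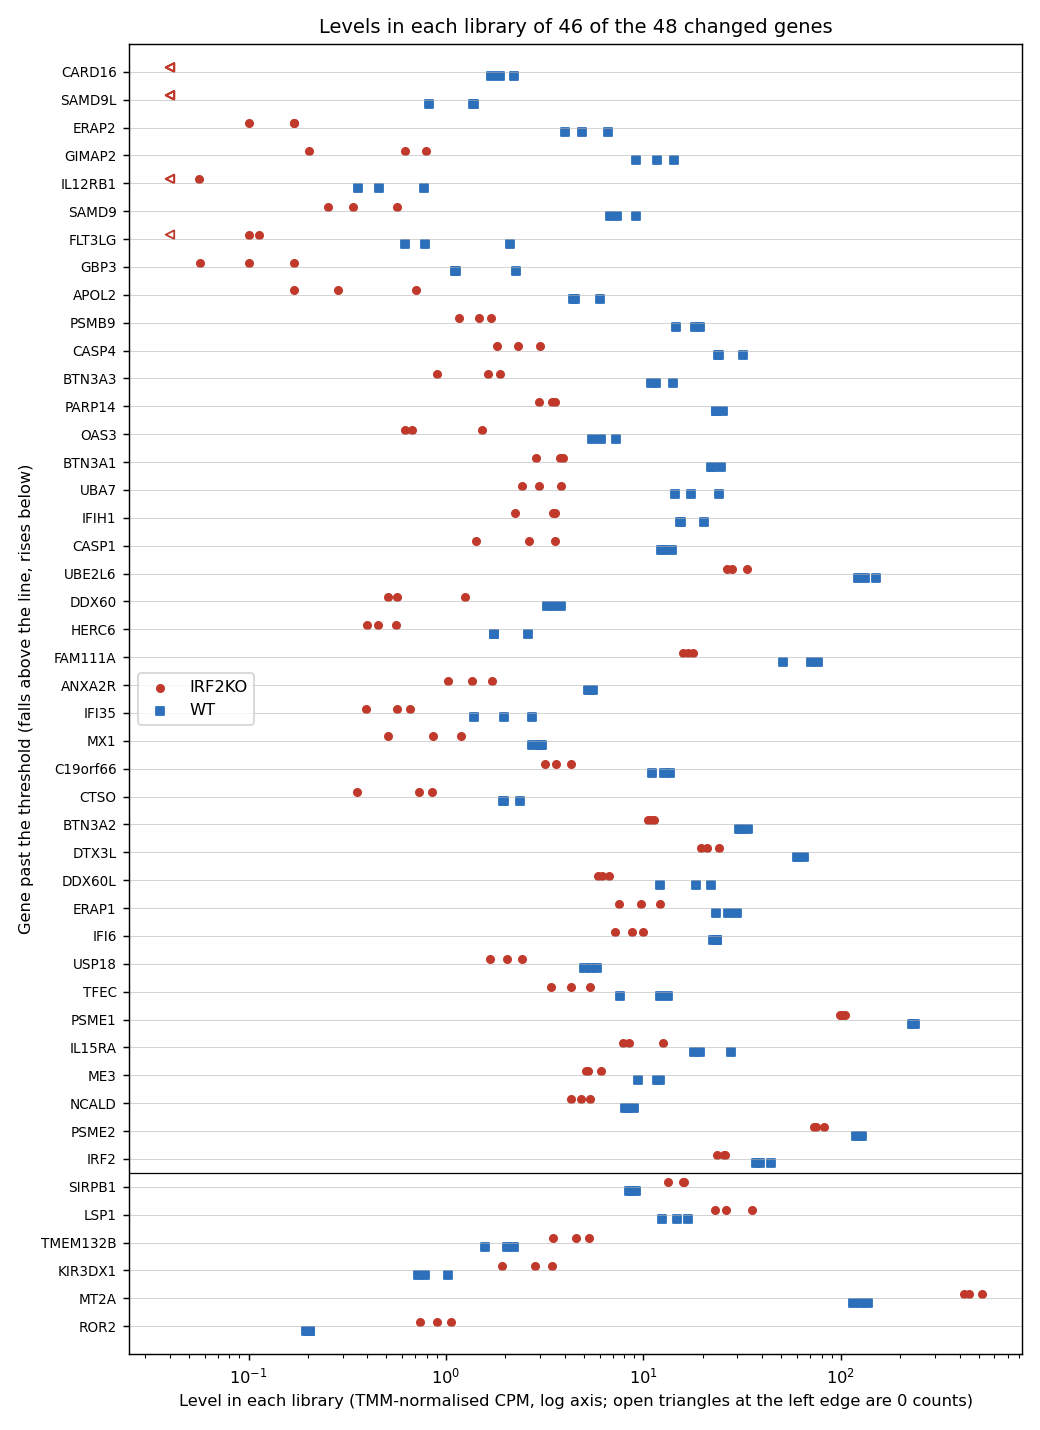
Each row is 1 of 46 of the 48 changed genes and each symbol 1 library (red circles IRF2KO, blue squares WT; TMM-normalised CPM, log axis; open triangles at the left edge are 0 counts); genes that fell stand above the line and genes that rose below it. In every row the 3 IRF2KO libraries lie apart from the 3 WT libraries, with IRF2 itself at 23.5 to 25.9 CPM in IRF2KO and 37.1 to 44.1 CPM in WT. The rows were picked by the test on these same libraries, so the gap adds no further support.

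For this and every list below, the share over all tested genes was 0.365% that fell and 0.0521% that rose. The lists were chosen with earlier results of these data known, so counts above those shares partly follow from that choice. In the proteasome and peptide transport genes that prepare antigens for MHC class I, 3 of 11 tested members fell, 8 did not pass and none rose. Their median was -0.34, against -0.01 over all tested genes. PSMB9, a catalytic subunit of the immunoproteasome (chr6:32844136-32859585, plus strand), had 1.47, 1.16 and 1.69 CPM in IRF2KO, against 18.2, 19.4 and 14.7 CPM in WT. PSMB9 gave a log2 fold change of -3.59 ± 0.20 (edgeR adjusted p = 3.9e-06). Its highest IRF2KO library was far below its lowest WT library. PSME1 and PSME2 encode the PA28 activator that caps the proteasome, and lie 4395 bases apart on chromosome 14. PSME1 had 98.8, 102 and 105 CPM in IRF2KO, against 229, 239 and 232 CPM in WT. PSME1 gave a log2 fold change of -1.20 ± 0.09 (edgeR adjusted p = 2.7e-05). PSME2 had 82.7, 75.3 and 73.3 CPM in IRF2KO, against 120, 128 and 125 CPM in WT (log2 fold change -0.69 ± 0.10, edgeR adjusted p = 0.0058), a narrow gap with tight replicates in both groups. PSME2 lost its call in 2 of 18 alternatives, without WT replicate 2 and with only the 6 IRF2KO and WT libraries in the fit (log2 fold change -0.68 to -0.67, adjusted p = 0.060 to 0.11).

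The partners of PSMB9 in the immunoproteasome gave other values. PSMB8 had 51.5, 51.1 and 50.3 CPM in IRF2KO, against 54.6, 64.1 and 72.7 CPM in WT (log2 fold change -0.32 ± 0.12, edgeR adjusted p = 0.26), with all IRF2KO libraries below all WT libraries but no pass. PSMB10 had 5.61, 10.6 and 7.66 CPM in IRF2KO, against 8.91, 14.7 and 16.5 CPM in WT (log2 fold change -0.74 ± 0.26, edgeR adjusted p = 0.26), and its groups overlapped. Both were called lower with GC and length trends removed, PSMB8 at -0.40 (adjusted p = 0.043) and PSMB10 at -1 (adjusted p = 0.016), and PSMB10 also without both WT replicate 1 and IRF2KO replicate 2, at -1.24 (adjusted p = 9.9e-04). TAP1 and TAP2 form the peptide transporter into the endoplasmic reticulum. TAP1 had 26.1, 30.4 and 27.3 CPM in IRF2KO, against 20.5, 21.5 and 24.8 CPM in WT (log2 fold change 0.33 ± 0.12, edgeR adjusted p = 0.26). TAP2 had 49.5, 40.4 and 46.9 CPM in IRF2KO, against 51.6, 46.0 and 41.2 CPM in WT (log2 fold change -0.02 ± 0.12, edgeR adjusted p = 0.92). Neither passed, TAP1 was higher in every IRF2KO library than in any WT library, and TAP2, which shares 32.3% of its exonic bases with other genes, took a positive sign in 4 of the alternative fits. PSMB8, PSMB9 and the TAP genes neighbour each other on chromosome 6.

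Of the 7 aminopeptidases that trim peptides, 2 fell and 5 did not pass, with a median of -0.20. ERAP2 and ERAP1, which trim peptides in the endoplasmic reticulum, are adjacent on chromosome 5. ERAP2 had 0.170, 0.101 and 0.169 CPM in IRF2KO, against 6.59, 4.89 and 4.01 CPM in WT (log2 fold change -5.09 ± 0.37, edgeR adjusted p = 2.0e-05), which rests on 8 counts over the 3 IRF2KO libraries and 281 over the 3 WT libraries. ERAP1 had 9.69, 7.49 and 12.2 CPM in IRF2KO, against 29.8, 23.4 and 26.9 CPM in WT. ERAP1 gave a log2 fold change of -1.45 ± 0.17 (edgeR adjusted p = 0.0015). Both genes were lower in every IRF2KO library than in any WT library, ERAP2 near the floor of 3 counts. LNPEP, the third member of that enzyme family and a neighbour of ERAP2, had a log2 fold change of -0.12 ± 0.13 with overlapping groups.

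None of the 14 tested genes of MHC class I heavy chains and peptide loading passed in edgeR, and their median was -0.17. At an unadjusted edgeR p under 0.05 there were 2, DESeq2 called 1, HLA-B (log2 fold change -0.52, adjusted p = 0.016), and limma-voom called 0. HLA-B had 499, 617 and 499 CPM in IRF2KO, against 688, 785 and 851 CPM in WT (log2 fold change -0.52 ± 0.12, edgeR adjusted p = 0.16), and all its IRF2KO libraries lay below all WT libraries. HLA-C had 291, 445 and 313 CPM in IRF2KO, against 313, 358 and 445 CPM in WT (log2 fold change -0.09 ± 0.17, edgeR adjusted p = 0.73), and its groups overlapped. HLA-B was called in 5 of the 18 alternatives, among them without IRF2KO replicate 2 (-0.63, adjusted p = 0.028), and HLA-C in 1, with GC and length trends removed (-0.43, adjusted p = 0.017). The light chain B2M had 897, 545 and 871 CPM in IRF2KO, against 1033, 918 and 783 CPM in WT (log2 fold change -0.24 ± 0.17, edgeR adjusted p = 0.38). The sign of HLA-C turned positive without WT replicate 3 or IRF2KO replicate 1, and that of B2M without WT replicate 1 and IRF2KO replicate 2. Reads of HLA-B and HLA-C can match more than 1 near-identical gene, and how such reads were counted is not given in the sources used here.

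Of the 16 tested genes of inflammatory caspases and pyroptosis, 3 fell and 13 did not pass, with a median of -0.07. The falling ones, CASP4, CASP1 and CARD16, stand in 1 caspase cluster on chromosome 11. CASP4, the sensor of cytosolic lipopolysaccharide (chr11:104942866-104969436, minus strand), had 2.32, 1.82 and 2.99 CPM in IRF2KO, against 32.1, 23.9 and 24.3 CPM in WT. CASP4 gave a log2 fold change of -3.50 ± 0.21 (edgeR adjusted p = 4.3e-06). CASP1, the caspase of the classical inflammasomes that matures interleukin-1 beta, had 3.57, 1.42 and 2.65 CPM in IRF2KO, against 14.0, 12.7 and 12.3 CPM in WT. CASP1 gave a log2 fold change of -2.36 ± 0.25 (edgeR adjusted p = 5.6e-04). CARD16 encodes a CARD-only protein that binds caspase-1 and had 0, 0 and 0 CPM in IRF2KO, against 2.21, 1.89 and 1.69 CPM in WT (edgeR adjusted p = 4.6e-04). Against a floor of 3 counts over the 3 IRF2KO libraries, its 105 WT counts made it at least 35.6-fold lower. CARD16 and CASP1 are adjacent and similar in sequence, so reads could be shared between them.

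Gasdermin D, the pore former that CASP4 and CASP1 cleave, did not pass: GSDMD had 22, 32.6 and 19 CPM in IRF2KO, against 15.4, 21.2 and 24.2 CPM in WT (log2 fold change 0.28 ± 0.21, edgeR adjusted p = 0.40). Its groups overlapped, and its sign turned negative with GC and length trends removed or with WT replicate 1 and IRF2KO replicate 2 both left out. CASP5, the other human lipopolysaccharide sensor, had no count in any of the 6 libraries. The adaptor gene PYCARD had a log2 fold change of 0.10 ± 0.13, the sensor gene NLRP3 one of -0.07 ± 0.16 and the cytokine gene IL1B one of 0.06 ± 0.19, all with overlapping groups. IL18 had 25.1, 17.1 and 26.1 CPM in IRF2KO, against 34.7, 32.2 and 27.4 CPM in WT (log2 fold change -0.47 ± 0.17, edgeR adjusted p = 0.26), with all IRF2KO libraries below all WT libraries.

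The butyrophilin genes split by subfamily: 3 of 5 tested members fell, all of the BTN3A kind, 2 did not pass, and the median was -1.54. BTN3A1, which presents the signal of phosphoantigens to gamma delta T cells, had 3.80, 3.90 and 2.87 CPM in IRF2KO, against 22.1, 22.4 and 24.8 CPM in WT. BTN3A1 gave a log2 fold change of -2.71 ± 0.16 (edgeR adjusted p = 4.3e-06). BTN3A3 had 1.64, 1.87 and 0.902 CPM in IRF2KO, against 11, 14.1 and 11.6 CPM in WT. BTN3A3 gave a log2 fold change of -3.04 ± 0.23 (edgeR adjusted p = 2.7e-05). BTN3A2 had 11, 10.6 and 11.3 CPM in IRF2KO, against 30.5, 31.5 and 33.9 CPM in WT. BTN3A2 gave a log2 fold change of -1.54 ± 0.14 (edgeR adjusted p = 9.6e-05). The 3 genes stand in 1 cluster on chromosome 6 and are near-identical copies, so the split of reads between them is uncertain, while each fell on its own count. Their partners BTN2A1 and BTN2A2, in the same cluster, had log2 fold changes of -0.11 ± 0.15 and -0.03 ± 0.23 with overlapping groups.

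Attachment of the ubiquitin-like protein ISG15 runs through an E1, an E2 and E3 enzymes, and 4 of the 8 tested genes of this pathway fell, 4 did not pass and none rose, with a median of -1.01. UBE2L6, the E2 enzyme, had 28.3, 33.6 and 26.4 CPM in IRF2KO, against 123, 133 and 151 CPM in WT. UBE2L6 gave a log2 fold change of -2.21 ± 0.13 (edgeR adjusted p = 4.3e-06). UBA7, the E1 enzyme, had 2.95, 3.85 and 2.42 CPM in IRF2KO, against 14.4, 17.4 and 24.1 CPM in WT. UBA7 gave a log2 fold change of -2.59 ± 0.22 (edgeR adjusted p = 8.3e-05). HERC6, of the HERC ligase family, had 0.397, 0.557 and 0.451 CPM in IRF2KO, against 1.75, 2.61 and 1.75 CPM in WT. HERC6 gave a log2 fold change of -2.08 ± 0.29 (edgeR adjusted p = 0.0053). The 3 IRF2KO libraries of each of these genes lay far below the WT libraries. USP18, the protease that removes ISG15, had 2.44, 1.67 and 2.03 CPM in IRF2KO, against 5.46, 5.02 and 5.85 CPM in WT. USP18 gave a log2 fold change of -1.42 ± 0.22 (edgeR adjusted p = 0.012). USP18 lost its call in 1 of 18 alternatives, without IRF2KO replicate 3 (log2 fold change -1.42, adjusted p = 0.080). ISG15 itself did not pass and was higher in every IRF2KO library than in any WT library, with 6.57, 8 and 6.54 CPM in IRF2KO, against 3.09, 6.26 and 4.98 CPM in WT (log2 fold change 0.57 ± 0.23, edgeR adjusted p = 0.26). HERC5, the main human ISG15 ligase, had 10.9, 7.19 and 9.75 CPM in IRF2KO, against 17.0, 14.1 and 11.2 CPM in WT (log2 fold change -0.61 ± 0.20, edgeR adjusted p = 0.26).

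Of 9 interferon-inducible PARP genes and partners, 2 fell and 7 did not pass, with a median of -0.37. PARP14, an ADP-ribosyltransferase and the gene with the smallest p of the comparison (chr3:122680618-122730840, plus strand), had 2.95, 3.44 and 3.55 CPM in IRF2KO, against 25.3, 23.4 and 23.3 CPM in WT. PARP14 gave a log2 fold change of -2.85 ± 0.15 (edgeR adjusted p = 3.8e-06). DTX3L, a ubiquitin ligase that pairs with PARP9, had 21.1, 19.5 and 24.1 CPM in IRF2KO, against 60.9, 60.2 and 65.1 CPM in WT. DTX3L gave a log2 fold change of -1.53 ± 0.12 (edgeR adjusted p = 2.7e-05). PARP9, which overlaps 3.70% of the exonic bases of DTX3L on the other strand, had 3.17, 1.97 and 2.99 CPM in IRF2KO, against 4.02, 5.81 and 3.95 CPM in WT (log2 fold change -0.76 ± 0.23, edgeR adjusted p = 0.26). Its libraries did not overlap either, but it did not pass.

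Both SAMD9 and SAMD9L, adjacent antiviral genes on chromosome 7 whose products also restrain cell growth, fell. SAMD9 had 0.340, 0.253 and 0.564 CPM in IRF2KO, against 9.17, 6.79 and 7.39 CPM in WT (log2 fold change -4.33 ± 0.27, edgeR adjusted p = 5.0e-06), on 21 counts in IRF2KO and 426 in WT. SAMD9L had 0, 0 and 0 CPM in IRF2KO, against 1.39, 1.37 and 0.822 CPM in WT (edgeR adjusted p = 9.8e-04). With 0 counts against 64 it was at least 21.7-fold lower, and the median of the pair was -4.38 with SAMD9L at this bound.

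In the list of oligoadenylate synthetases, 1 of 6 tested genes fell, with a median of -0.96. OAS3, a sensor of long double-stranded RNA, had 0.623, 1.52 and 0.676 CPM in IRF2KO, against 6.13, 5.48 and 7.29 CPM in WT. OAS3 gave a log2 fold change of -2.72 ± 0.28 (edgeR adjusted p = 3.9e-04). Its relatives OAS1, OAS2 and OASL did not pass, with log2 fold changes of -1.91 ± 0.50, -1.15 ± 0.34 and -0.77 ± 0.40, although in each all IRF2KO libraries lay below all WT libraries.

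Of 12 tested genes of double-stranded RNA sensing, 3 fell and 9 did not pass, with a median of -0.25. IFIH1 encodes the receptor MDA5 and had 3.57, 2.23 and 3.49 CPM in IRF2KO, against 20.2, 15.5 and 15.3 CPM in WT. IFIH1 gave a log2 fold change of -2.46 ± 0.20 (edgeR adjusted p = 5.3e-05). DDX60 and DDX60L, adjacent helicase genes on chromosome 4, both fell. DDX60 had 1.25, 0.506 and 0.564 CPM in IRF2KO, against 3.81, 3.52 and 3.24 CPM in WT. DDX60 gave a log2 fold change of -2.19 ± 0.30 (edgeR adjusted p = 0.0047). DDX60L had 6.69, 6.17 and 5.92 CPM in IRF2KO, against 22, 18.5 and 12.1 CPM in WT. DDX60L gave a log2 fold change of -1.48 ± 0.20 (edgeR adjusted p = 0.0047). The other RNA sensor of the family, DDX58, which encodes RIG-I, had 3.97, 2.73 and 3.32 CPM in IRF2KO, against 6.49, 4.70 and 4.98 CPM in WT (log2 fold change -0.70 ± 0.21, edgeR adjusted p = 0.26). The kinase EIF2AK2 and the editing enzyme ADAR did not pass, with log2 fold changes of -0.53 ± 0.11 and 0.45 ± 0.09, and for both the libraries did not overlap.

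In the list of IFIT, IFITM and other restriction genes, 3 of 20 tested members fell, 17 did not pass, and the median was -0.20. IFI6, a small protein of the endoplasmic reticulum with antiviral activity, had 9.92, 8.76 and 7.16 CPM in IRF2KO, against 23.6, 23.6 and 22.6 CPM in WT. IFI6 gave a log2 fold change of -1.43 ± 0.14 (edgeR adjusted p = 3.1e-04). MX1, a dynamin-like GTPase that blocks influenza viruses, had 1.19, 0.860 and 0.507 CPM in IRF2KO, against 2.99, 2.74 and 3.08 CPM in WT. MX1 gave a log2 fold change of -1.78 ± 0.27 (edgeR adjusted p = 0.0095). MX1 lost its call in 1 of 18 alternatives, with only the 6 IRF2KO and WT libraries in the fit (log2 fold change -1.77, adjusted p = 0.066). IFI35, a partner of NMI, had 0.567, 0.658 and 0.394 CPM in IRF2KO, against 1.39, 1.96 and 2.72 CPM in WT. IFI35 gave a log2 fold change of -1.89 ± 0.33 (edgeR adjusted p = 0.035). IFI35 lost its call in 9 of 18 alternatives, among them without WT replicate 2 or 3, IRF2KO replicate 1 or 3 or any 1 IRF2KO_pIRF2 library and with only the 6 IRF2KO and WT libraries in the fit (log2 fold change -1.92 to -1.60, adjusted p = 0.059 to 0.15). BST2, which tethers budding virions, was higher in every IRF2KO library than in any WT library and did not pass, with 136, 122 and 116 CPM in IRF2KO, against 82.4, 90.9 and 90.3 CPM in WT (log2 fold change 0.50 ± 0.10, edgeR adjusted p = 0.087). The classical interferon-induced gene IFIT1 had 1.76, 1.16 and 1.24 CPM in IRF2KO, against 2.47, 1.96 and 2.31 CPM in WT (log2 fold change -0.70 ± 0.25, edgeR adjusted p = 0.26), and IFI44, IFI44L, EPSTI1, XAF1 and RTP4 had no count in any of the 6 libraries.

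Single members of further families fell. GIMAP2, a GTPase of immune cells (chr7:150685697-150693641, plus strand), had 0.793, 0.202 and 0.620 CPM in IRF2KO, against 14.3, 11.7 and 9.19 CPM in WT. GIMAP2 gave a log2 fold change of -4.46 ± 0.32 (edgeR adjusted p = 2.0e-05). Its neighbour GIMAP1, the only other tested member of the family, had 0.850, 0.253 and 0.394 CPM in IRF2KO, against 2.21, 2.09 and 1.44 CPM in WT (log2 fold change -1.94 ± 0.37, edgeR adjusted p = 0.055) and did not pass, and the median of the pair was -3.20. APOL2, an intracellular apolipoprotein L, had 0.283, 0.709 and 0.169 CPM in IRF2KO, against 4.38, 4.50 and 6.01 CPM in WT. APOL2 gave a log2 fold change of -3.63 ± 0.35 (edgeR adjusted p = 2.3e-04). Without IRF2KO replicate 2 the log2 fold change of APOL2 was -4.42. The other 2 tested apolipoprotein L genes, APOL4 and APOL6, had log2 fold changes of -0.15 ± 0.19 and -0.09 ± 0.12, and the median of the 3 was -0.15.

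GBP3, a guanylate-binding GTPase, had 0.0567, 0.101 and 0.169 CPM in IRF2KO, against 2.27, 1.11 and 1.13 CPM in WT (log2 fold change -3.72 ± 0.49, edgeR adjusted p = 0.0033), on 6 counts in IRF2KO and 83 in WT. It was 1 of 5 tested members of its family, whose median was -0.43, and the other 4 had overlapping groups. C19orf66, also named SHFL, an inhibitor of ribosomal frameshifting in retroviruses, had 3.63, 4.30 and 3.16 CPM in IRF2KO, against 11.1, 12.7 and 13.7 CPM in WT. C19orf66 gave a log2 fold change of -1.75 ± 0.16 (edgeR adjusted p = 1.5e-04). It was the 1 gene of 15 tested in the TRIM and SP100 list that fell, with 27.1% of its exonic bases shared with genes on the other strand; the median of the list was -0.12. Of the 31 genes tested in the apoptosis list, 1 fell, and the median of that list was -0.04.

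**Figure D3:**
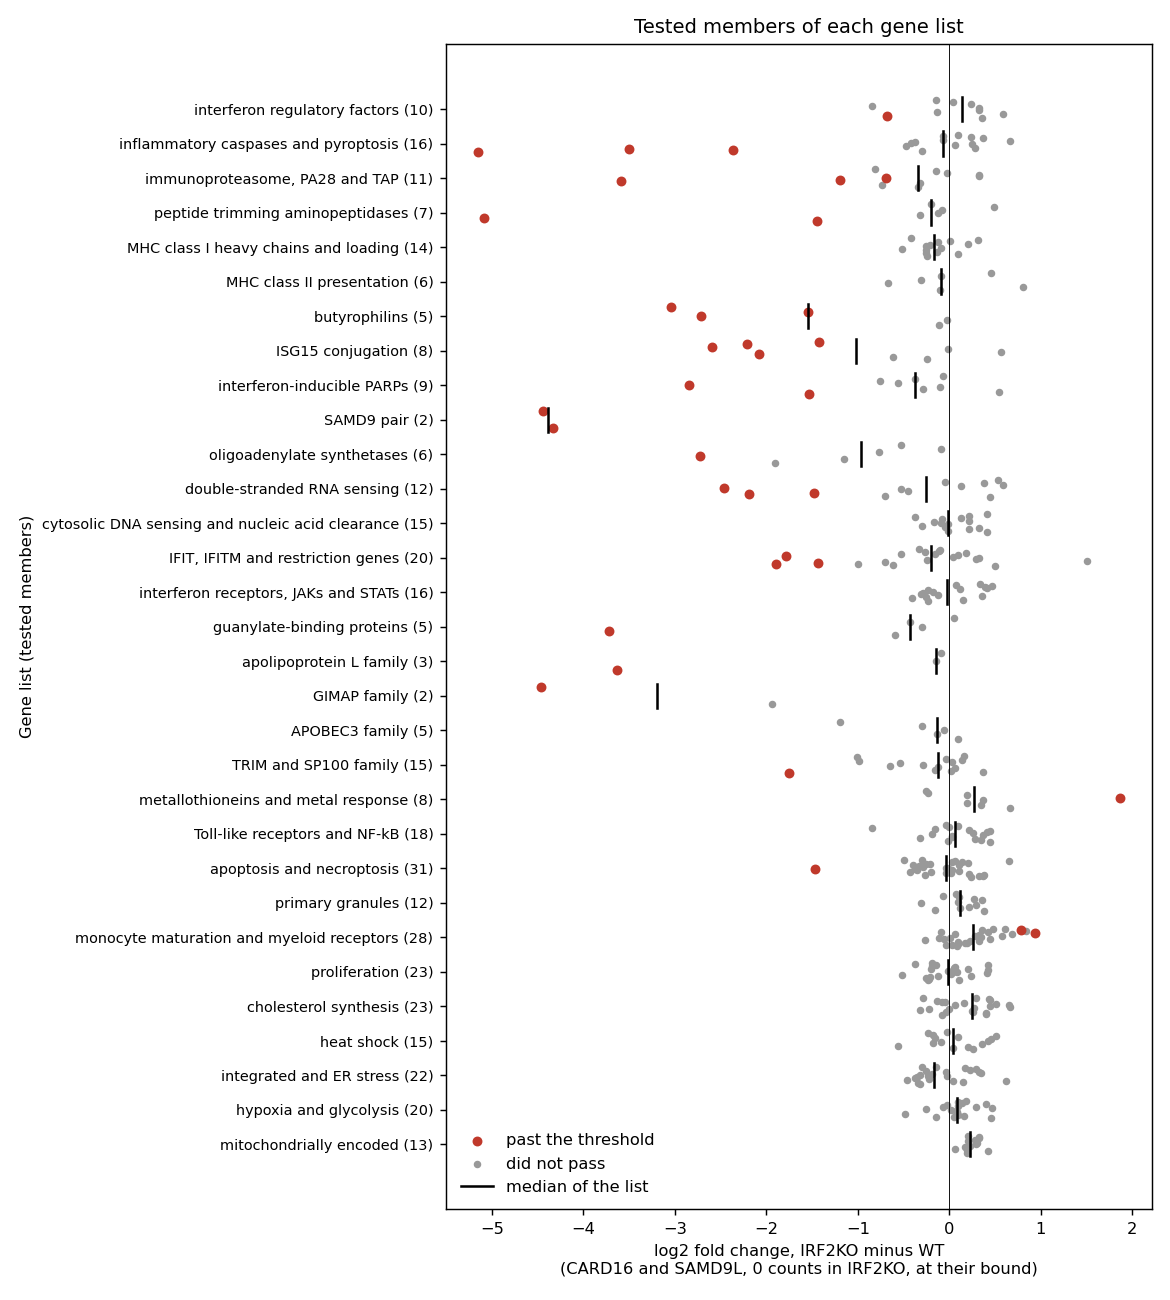
Each row is a gene list with its number of tested members, and each point 1 member at its log2 fold change, IRF2KO minus WT; red points passed the test, grey points did not, and the black bar is the median of the list. The butyrophilin, ISG15 conjugation, oligoadenylate synthetase, SAMD9 and GIMAP rows have medians of -0.96 or lower, while most other rows lie around 0 with 0 to 3 red points each; CARD16 and SAMD9L are drawn at their bounds, and the 4 lists of other cell types are not drawn.

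Of the 42 genes that fell, 32 were members of a list and 10 were not. The lists were chosen with earlier results of these data known, so this split and the counts per list partly follow from that choice. FAM111A, a serine protease bound to replication forks that restricts some viruses, had 17.9, 16.9 and 15.8 CPM in IRF2KO, against 76.7, 71.1 and 50.9 CPM in WT. FAM111A gave a log2 fold change of -1.97 ± 0.16 (edgeR adjusted p = 5.9e-05). ANXA2R, a receptor for annexin A2, had 1.02, 1.72 and 1.35 CPM in IRF2KO, against 5.25, 5.55 and 5.39 CPM in WT. ANXA2R gave a log2 fold change of -1.97 ± 0.21 (edgeR adjusted p = 5.6e-04). These 2 passed in all 18 alternatives. ME3, a mitochondrial malic enzyme, had 5.10, 6.07 and 5.24 CPM in IRF2KO, against 9.42, 11.8 and 12.1 CPM in WT. ME3 gave a log2 fold change of -1.02 ± 0.16 (edgeR adjusted p = 0.013). ME3 lost its call in 5 of 18 alternatives, without WT replicate 2 or 3 or IRF2KO replicate 1 or 3 and with only the 6 IRF2KO and WT libraries in the fit (log2 fold change -1.02 to -0.95, adjusted p = 0.052 to 0.11).

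The remaining genes outside the lists had smaller margins. CTSO, a lysosomal cysteine protease, had 0.850, 0.354 and 0.733 CPM in IRF2KO, against 2.37, 1.96 and 1.95 CPM in WT. CTSO gave a log2 fold change of -1.71 ± 0.28 (edgeR adjusted p = 0.022). CTSO lost its call in 8 of 18 alternatives, without WT replicate 1 or 2, IRF2KO replicate 3 or any 1 IRF2KO_pIRF2 library, with only the 6 IRF2KO and WT libraries in the fit and without both WT replicate 1 and IRF2KO replicate 2 (log2 fold change -1.82 to -1.30, adjusted p = 0.052 to 0.14). TFEC, a transcription factor of the MITF family found in macrophages, had 3.40, 4.30 and 5.35 CPM in IRF2KO, against 13.4, 12.1 and 7.65 CPM in WT. TFEC gave a log2 fold change of -1.34 ± 0.24 (edgeR adjusted p = 0.034). TFEC lost its call in 10 of 18 alternatives, among them without WT replicate 1 or 2, IRF2KO replicate 1 or 3 or any 1 IRF2KO_pIRF2 library, with only the 6 IRF2KO and WT libraries in the fit and with the mitochondrial share as a covariate (log2 fold change -1.52 to -1.18, adjusted p = 0.055 to 0.18). IL15RA, which presents interleukin-15 to other cells, had 7.93, 12.6 and 8.51 CPM in IRF2KO, against 18.1, 19.3 and 27.8 CPM in WT. IL15RA gave a log2 fold change of -1.16 ± 0.21 (edgeR adjusted p = 0.040). IL15RA lost its call in 8 of 18 alternatives, without WT replicate 2 or 3, IRF2KO replicate 1 or 3 or any 1 IRF2KO_pIRF2 library and with only the 6 IRF2KO and WT libraries in the fit (log2 fold change -1.24 to -0.94, adjusted p = 0.081 to 0.19). NCALD, a calcium sensor, had 5.38, 4.81 and 4.28 CPM in IRF2KO, against 8.34, 9.01 and 8.11 CPM in WT. NCALD gave a log2 fold change of -0.81 ± 0.15 (edgeR adjusted p = 0.044). NCALD lost its call in 13 of 18 alternatives, among them without any 1 of the 9 libraries, with only the 6 IRF2KO and WT libraries in the fit, with the mitochondrial share as a covariate and without both WT replicate 1 and IRF2KO replicate 2 (log2 fold change -0.90 to -0.74, adjusted p = 0.054 to 0.34).

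IL12RB1, a receptor chain shared by several interleukins, and FLT3LG, the ligand of the progenitor receptor FLT3, were near the floor. IL12RB1 had 0, 0 and 0.0564 CPM in IRF2KO, against 0.360, 0.457 and 0.770 CPM in WT, which is 1 count against 29, or 3.39% of the WT rate with an exact 95% interval from 0.083% to 20.4% that covers counting error only (edgeR adjusted p = 0.035). IL12RB1 lost its call in 9 of 17 alternatives that tested it, among them without WT replicate 2 or 3, any 1 IRF2KO library or any 1 IRF2KO_pIRF2 library (log2 fold change -6.40 to -3.96, adjusted p = 0.055 to 0.14). Its fitted log2 fold change was -4.46, and -6.40 without IRF2KO replicate 3. FLT3LG fell 15.1-fold on 4 counts against 65 (edgeR adjusted p = 0.047), and shares 37.5% of its exonic bases with other genes. FLT3LG lost its call in 9 of 18 alternatives, without WT replicate 2 or 3, any 1 IRF2KO library or any 1 IRF2KO_pIRF2 library and with only the 6 IRF2KO and WT libraries in the fit (log2 fold change -4.32 to -3.15, adjusted p = 0.072 to 0.16). Without WT replicate 3 its log2 fold change was -3.15, against -3.92 with all libraries.

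The 6 genes that rose were MT2A, LSP1, SIRPB1, TMEM132B, KIR3DX1 and ROR2. MT2A, a small protein that binds zinc and copper (chr16:56608199-56609497, plus strand), had 447, 519 and 419 CPM in IRF2KO, against 116, 126 and 137 CPM in WT. MT2A gave a log2 fold change of 1.87 ± 0.11 (edgeR adjusted p = 4.3e-06). It was the only gene of the 6 that passed in all 18 alternatives. Of the 8 tested genes of metallothioneins and metal response it was the 1 that rose, 7 did not pass, and the median was 0.27. Its relative MT1E had 98.6, 119 and 91.0 CPM in IRF2KO, against 56.6, 69.3 and 68.9 CPM in WT (log2 fold change 0.66 ± 0.13, edgeR adjusted p = 0.065). MT1X had 89.6, 75.4 and 88.6 CPM in IRF2KO, against 69.0, 66.3 and 60.6 CPM in WT (log2 fold change 0.37 ± 0.11, edgeR adjusted p = 0.26). In both, all IRF2KO libraries lay above all WT libraries. MT1G, with 158, 157 and 143 CPM in IRF2KO, against 121, 130 and 149 CPM in WT (log2 fold change 0.19 ± 0.12, edgeR adjusted p = 0.33), overlapped between the groups, and the metal-responsive transcription factor gene MTF1 had a log2 fold change of 0.19 ± 0.12.

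SIRPB1 and LSP1 belong to the list of monocyte maturation genes, of whose 28 tested members 2 rose and 26 did not pass, with a median of 0.25. LSP1, an actin-binding protein of leukocytes, had 26.2, 35.7 and 23.1 CPM in IRF2KO, against 12.5, 14.9 and 16.8 CPM in WT. LSP1 gave a log2 fold change of 0.94 ± 0.17 (edgeR adjusted p = 0.044). LSP1 lost its call in 9 of 18 alternatives, among them without WT replicate 1 or 2, IRF2KO replicate 1 or any 1 IRF2KO_pIRF2 library, in limma-voom and with only the 6 IRF2KO and WT libraries in the fit (log2 fold change 0.83 to 0.99, adjusted p = 0.052 to 0.23). SIRPB1, an activating receptor that signals through TYROBP, had 13.3, 15.9 and 16.1 CPM in IRF2KO, against 9.22, 8.48 and 8.78 CPM in WT. SIRPB1 gave a log2 fold change of 0.78 ± 0.13 (edgeR adjusted p = 0.029). SIRPB1 lost its call in 9 of 18 alternatives, among them without any 1 WT library, IRF2KO replicate 3 or any 1 IRF2KO_pIRF2 library and with only the 6 IRF2KO and WT libraries in the fit (log2 fold change 0.73 to 0.81, adjusted p = 0.077 to 0.22). TYROBP itself had 5.95, 7.89 and 5.35 CPM in IRF2KO, against 4.17, 3.85 and 4.57 CPM in WT (log2 fold change 0.61 ± 0.20, edgeR adjusted p = 0.26) and did not pass. For LSP1, IRF2KO replicate 2, the library at the end of the first component, had the highest value.

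TMEM132B, a transmembrane protein gene, had 5.33, 3.49 and 4.56 CPM in IRF2KO, against 2.21, 1.57 and 2.05 CPM in WT. TMEM132B gave a log2 fold change of 1.18 ± 0.22 (edgeR adjusted p = 0.044). TMEM132B lost its call in 11 of 18 alternatives, among them without any 1 WT library, IRF2KO replicate 1 or 3 or any 1 IRF2KO_pIRF2 library, in limma-voom and with only the 6 IRF2KO and WT libraries in the fit (log2 fold change 1.03 to 1.28, adjusted p = 0.058 to 0.27). KIR3DX1, related to the killer cell immunoglobulin-like receptors, had 1.93, 3.44 and 2.82 CPM in IRF2KO, against 0.721, 0.783 and 1.03 CPM in WT. KIR3DX1 gave a log2 fold change of 1.69 ± 0.27 (edgeR adjusted p = 0.018). KIR3DX1 lost its call in 5 of 18 alternatives, without WT replicate 1 or 2 or IRF2KO replicate 3, with only the 6 IRF2KO and WT libraries in the fit and without both WT replicate 1 and IRF2KO replicate 2 (log2 fold change 1.36 to 1.69, adjusted p = 0.085 to 0.11). ROR2, a receptor tyrosine kinase for WNT5A, had 0.737, 1.06 and 0.902 CPM in IRF2KO, against 0.206, 0.196 and 0.205 CPM in WT. ROR2 gave a log2 fold change of 2.12 ± 0.34 (edgeR adjusted p = 0.015). ROR2 lost its call in 9 of 18 alternatives, among them without any 1 WT library or IRF2KO replicate 2 or 3, with only the 6 IRF2KO and WT libraries in the fit, with the mitochondrial share as a covariate and without both WT replicate 1 and IRF2KO replicate 2 (log2 fold change 1.98 to 2.13, adjusted p = 0.053 to 0.14). ROR2 rested on 50 counts over the 3 IRF2KO libraries and 11 over the 3 WT libraries.

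The number of rises was less steady than the number of falls when libraries were left out. Without WT replicate 1 only 1 gene rose, without WT replicate 2 there were 2 and without IRF2KO replicate 3 there were 3, as there were without any 1 of the IRF2KO_pIRF2 libraries; 14 rose without WT replicate 1 and IRF2KO replicate 2. Under the same omissions 32 to 47 genes fell.

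Several of the genes lay next to each other. Counting pairs with fewer than 3 protein-coding genes between them, 16 of the 48 formed 11 pairs, and 5 pairs were adjacent: BTN3A1 and BTN3A3, SAMD9 and SAMD9L, CASP1 and CARD16, ERAP1 and ERAP2, and DDX60 and DDX60L. The gap was 6076 bases between CASP1 and CARD16 and 12032 bases between SAMD9 and SAMD9L. Both members of every pair fell, as did 42 of the 48 genes. How often tested genes form such pairs was not counted. Reads could be shared among the BTN3A genes and between CASP1 and CARD16, as said above.

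A promoter window was found for 9518 of the 11517 tested genes and for 34 of the 48 called ones, 31 that fell and 3 that rose. The IRF motif GAAANNGAA stood in the window of 22 of the 31 that fell, 71.0%, and of none of the 3 that rose. Among members of the interferon-related lists (interferon-list genes) that did not pass, it stood in 34 of 77, 44.2%. It stood in 851 of the 9518 tested genes, 8.94%, and in 2847 of all 35116 RefSeq windows of this length, 8.11%. The last share is per window and not per gene. Read the other way, 2.59% of the tested genes with the motif were called, all lower in IRF2KO, and 0.138% of those without it.

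The 22 genes were ANXA2R, BTN3A3, C19orf66, DDX60, DDX60L, DTX3L, ERAP1, ERAP2, FAM111A, FLT3LG, GBP3, GIMAP2, IFI6, IFIH1, IL15RA, MX1, OAS3, PARP14, PSME1, PSME2, SAMD9 and TFEC. In 14 of them a match lay wholly before the start, in 11 within the last 100 bases, and in 8 only at or after the start. More than 1 match in a window was present in 7 of the 22, 31.8%, and in 75 of the 851 tested genes with the motif, 8.81%. Despite these shares, the median log2 fold change of all 851 tested genes with the motif was -0.07, against -0.01 for those without it. A match is a run of letters and not a measured binding site.

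The STAT motif TTCNNNGAA, searched on both strands, served as the second description. It stood in at least 1 window of 9 of the 31 genes that fell, 29%, and of 1 of the 3 that rose (MT2A). Among the 77 interferon-list genes that did not pass it stood in 15, 19.5%, and among tested genes in 8.43%. Both motifs were present in 7 genes that fell, in 1 of them with shared bases. The genes PSMB9, CASP4, UBE2L6, BTN3A2, SAMD9L and HERC6, which passed in all 18 alternatives, held neither motif in their windows.

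**Figure D4:**
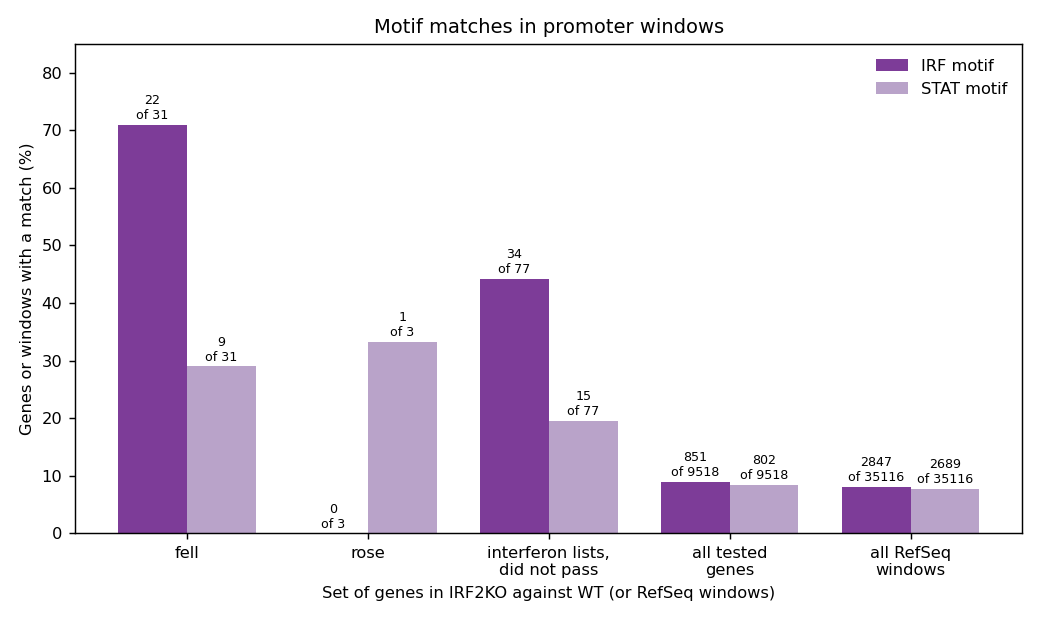
Bars give the share (percent) of genes with a match to the IRF motif (dark) or the STAT motif (light) in at least 1 promoter window. The sets are genes that fell, genes that rose, interferon-list genes that did not pass and all tested genes. The last pair of bars gives the share of all RefSeq windows, and counts stand above each bar. The dark bar reaches 71.0% in genes that fell and 44.2% in interferon-list genes that did not pass, and is 8.94% in all tested genes and 8.11% in all windows.

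The signalling genes upstream of the interferon response did not pass. STAT2 had 31.4, 52.9 and 38.7 CPM in IRF2KO, against 22.9, 31.2 and 35.1 CPM in WT (log2 fold change 0.47 ± 0.20, edgeR adjusted p = 0.27), with overlapping groups. All 16 tested genes of interferon receptors, JAKs and STATs gave no pass and a median of -0.02; by CPM its highest members were JAK1, PTPN6 and TYK2, with log2 fold changes of -0.31 ± 0.14, 0.12 ± 0.10 and 0.34 ± 0.17.

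In all, 17 of the 35 lists had no member past the test, over 218 tested members, in edgeR, and limma-voom called 0 of them. DESeq2 called 5 of the 218, among them APOBEC3G (log2 fold change -1.20) and HLA-B, lower in IRF2KO, and FCER2 (1.24) and LYZ (0.30), higher. An unadjusted edgeR p under 0.05 was reached by 40 of the 218, against 2149 of all 11517 tested genes. Beside MHC class I and interferon signalling, these lists covered the following. Cytosolic DNA sensing had a median of -0.01 over 15 tested genes, with RNASEH2B at -0.17 ± 0.15, MNDA at -0.05 ± 0.12 and RNASET2 at -0.08 ± 0.11 on the log2 fold scale. APOBEC3 genes had a median of -0.13 over 5, with APOBEC3C at -0.13 ± 0.14, APOBEC3B at 0.10 ± 0.16 and APOBEC3D at -0.06 ± 0.27. APOBEC3G, the DESeq2 call of that list, was at -1.20 ± 0.25 (edgeR adjusted p = 0.087). MHC class II presentation had a median of -0.10 over 6, with CTSS at -0.67 ± 0.21, CD74 at -0.10 ± 0.33 and HLA-DRB1 at 0.46 ± 0.19. Toll-like receptor and NF-kB genes had a median of 0.06 over 18, with IRAK1 at 0.28 ± 0.10, MYD88 at 0.03 ± 0.10 and NFKB1 at 0.03 ± 0.10. None of the genes named here passed in edgeR.

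The lists on cell state likewise held no gene past the test. The primary granule genes of the myeloid lineage had a median of 0.12 over 12, with PRTN3 at 0.36 ± 0.23, SRGN at 0.07 ± 0.16 and ELANE at 0.22 ± 0.19 on the log2 fold scale. Proliferation genes had a median of -0.01 over 23, with MYC at 0.06 ± 0.10, MKI67 at 0.05 ± 0.10 and PCNA at -0.19 ± 0.16. Cholesterol synthesis genes had a median of 0.25 over 23, with FDFT1 at -0.04 ± 0.11, INSIG1 at 0.27 ± 0.09 and FDPS at 0.25 ± 0.11. Their summed level was 2858 to 2996 CPM in IRF2KO, against 2512 to 2727 CPM in WT.

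Heat shock genes had a median of 0.04 over 15, with HSP90AB1 at -0.09 ± 0.12, HSPB1 at 0.51 ± 0.19 and HSPD1 at -0.18 ± 0.18. The integrated and endoplasmic reticulum stress genes had a median of -0.17 over 22, with ATF4 at 0.15 ± 0.11, PSAT1 at -0.25 ± 0.15 and HSP90B1 at -0.32 ± 0.18. Genes of hypoxia and glycolysis had a median of 0.09 over 20, with GAPDH at 0.09 ± 0.15, ALDOA at 0.46 ± 0.20 and ENO1 at 0.05 ± 0.15. These stress and energy genes were spread on both sides of 0. Mitochondrially encoded genes had a median of 0.23 over 13, with all 13 above 0, and MT-CO1, MT-CO3 and MT-ND4 at 0.19 ± 0.24, 0.17 ± 0.16 and 0.28 ± 0.21; their shares of the libraries overlapped between the groups.

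Markers of other cell types did not pass in edgeR either, and their part in the results above was not tested. Of 15 T and NK cell markers 4 were tested and 7 were at 0 in all 6 libraries, among them CD3D, CD3E and CD8A, with a summed level of 320 to 455 CPM in IRF2KO and 290 to 359 CPM in WT. Nearly all of that sum was NKG7, at 0.19 ± 0.14; KLRD1 was at 0.51 ± 0.37 and NCAM1 at 0.85 ± 0.50. Of 12 B cell markers 7 were tested and 4 were at 0, among them MS4A1 and IGHM. The B cell sums were 29.2 to 41.4 CPM in IRF2KO and 21.7 to 26.3 CPM in WT and did not overlap, and the median log2 fold change of the 7 was 0.68, with 6 higher and 1 lower in IRF2KO. In 4 of the 7 all IRF2KO libraries lay above all WT libraries, against 8.97% of all tested genes. An unadjusted edgeR p under 0.05 was reached by 4 of the 7, against 2149 of all 11517 tested genes. FCER2 had the largest difference, at 1.24 ± 0.26 (edgeR adjusted p = 0.095, DESeq2 adjusted p = 0.0037), and the lower one was EBF1, at -0.45 ± 0.16. PAX5 was at 0.56 ± 0.16 and CD79A at 0.70 ± 0.33. The groups overlapped for CD79A, whose highest value, 13.0 CPM, was that of IRF2KO replicate 2. Its log2 fold change ran from 0.03 to 1.12 over the alternatives.

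Of 15 erythroid and megakaryocyte markers 10 were at 0, the sums were 22.5 to 31.2 CPM in IRF2KO and 24.4 to 26.3 CPM in WT, and EPOR and KLF1, the 2 tested, were at -0.05 ± 0.15 and 0.54 ± 0.19. Of 14 epithelial and fibroblast markers 7 were at 0, the sums were 4.65 to 7.44 CPM in IRF2KO and 4.70 to 6.13 CPM in WT, and MUC1, CLDN4 and COL1A1, the 3 tested, were at -0.10 ± 0.22, 0.64 ± 0.37 and 0.42 ± 0.46. These values leave the defining genes of the other lineages at or near 0, apart from those named.

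Short of the threshold, 563 uncalled genes with at least 5 CPM in the higher group had an unadjusted edgeR p under 0.05 and all IRF2KO libraries above all WT libraries. In the other direction 454 genes did the same. For scale, 2149 of all 11517 tested genes had an unadjusted edgeR p under 0.05. All IRF2KO libraries lay above all WT libraries for 8.97% of tested genes and below them for 8.23%. The largest differences upward were those of CTXN1, EGFL7, ETV4, PODXL and MRPL12. ETV4, an ETS transcription factor, had 11.8, 18.5 and 12.6 CPM in IRF2KO, against 5.56, 8.09 and 7.75 CPM in WT (log2 fold change 1.01 ± 0.21, edgeR adjusted p = 0.095). EGFL7, a secreted protein of blood vessels, had 6.29, 14.0 and 8.23 CPM in IRF2KO, against 3.45, 4.37 and 5.60 CPM in WT (log2 fold change 1.09 ± 0.29, edgeR adjusted p = 0.24). For all 5 the highest value was that of IRF2KO replicate 2, the library at 1 end of the first component. The log2 fold changes of CTXN1, PODXL and MRPL12 were 1.11 ± 0.27, 1 ± 0.28 and 0.98 ± 0.20.

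The largest uncalled differences downward were those of TRIM5, EVI2A, GCA, HTRA1 and SOAT1. TRIM5, a restriction factor of retroviruses that is also known to respond to interferon, had 9.29, 5.21 and 7.21 CPM in IRF2KO, against 17.6, 15.6 and 10.6 CPM in WT (log2 fold change -1.01 ± 0.23, edgeR adjusted p = 0.14). GCA, a calcium-binding protein of neutrophil granules that stands beside IFIH1 in the genome, had 15.0, 11.1 and 14.1 CPM in IRF2KO, against 29.2, 25.7 and 18.5 CPM in WT (log2 fold change -0.87 ± 0.18, edgeR adjusted p = 0.087). For both, the groups did not overlap but WT replicate 3 lay closest to the knockout. In 4 of the 5, all but HTRA1, the lowest value was that of IRF2KO replicate 2. EVI2A, HTRA1 and SOAT1 had log2 fold changes of -0.93 ± 0.29, -0.87 ± 0.20 and -0.83 ± 0.18. At least 1 alternative called 4 of the 5 upward genes, all but PODXL, and 4 of the 5 downward ones, all but EVI2A; without WT replicate 3, TRIM5 (adjusted p = 0.041) and GCA (adjusted p = 0.012) were called.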

How the data were processed

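RNA-seq counts per gene were analysed for 3 IRF2KO and 3 WT libraries, with 3 IRF2KO_pIRF2 libraries in the same fit. The authors deposited raw counts per gene, and the submitters' processing notes name Bowtie2 2.3.3, TopHat2 2.1.1, HTSeq 0.9.1 and the build hg38. How strand and reads matching several genes were handled is not stated in any source used here. The table has 20265 gene IDs, 20012 of them in GENCODE 29, from which coordinates and exon overlaps were taken; the 253 others held 0.0123% of the counts. Columns were matched to samples by title, 1 of them written without its first letter.

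Counts were filtered with filterByExpr, scaled by TMM and tested with edgeR 4.0.16 (quasi-likelihood F-test, R 4.3.3), with Benjamini-Hochberg adjustment over all 11517 tested genes and a threshold of 0.05. The biological coefficient of variation was 14.9%. Groups with 0 counts were set at a floor of 3 counts over the group; floors and the exact 95% interval cover counting error only. Promoter windows are those of RefSeq on GRCh38.p14, with 35116 windows in the table, and C19orf66 was matched by its synonym.

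The alternatives were DESeq2 1.42.0, its size factors in edgeR, limma-voom 3.58.1, no filter on low counts, the 6 libraries alone, the replicate number as a block, the mitochondrial share as a covariate, GC and length trends removed (an offset per gene and library), and each of the 9 libraries left out in turn; leaving out WT replicate 1 and IRF2KO replicate 2 together was chosen after seeing the data. The genes named are IRF2, a fixed set of caspase, gasdermin, IRF, STAT and antigen presentation genes, every gene past the threshold (levels in each library for up to 4 per list and 12 outside the lists), the 3 members with the highest CPM of each list without a call, the 5 largest differences per direction that were not called, and genes with 0 counts in 1 group; a few other list members were chosen after their values were seen, and some genes that these rules name are not reported here. The comparison and the gene lists were chosen with earlier results of these data known; which libraries enter it follows from the genotype labels.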

Additional observations from a re-analysis of the deposited data

How the results depend on the processing

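Against 48 calls with edgeR, DESeq2 called 121, the fit with GC and length trends removed 106 and the fit of the 6 IRF2KO and WT libraries alone 31, and 48, 47 and 31 of these were among the 48. Leaving out 1 library at a time gave 34 to 49 calls. No other alternative moved the count by more than 1.5 times. The replicate block gave 39, all of them among the 48, but the numbers do not pair the libraries: deviations of same-numbered libraries correlated at 0.606, -0.003 and -0.43, and not every library correlated best with its own number.

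For IRF2 the log2 fold change was -0.68 with an adjusted p of 0.22 with the 6 libraries alone, -0.68 (adjusted p = 0.064) under the replicate block, -0.52 (adjusted p = 0.10) with GC and length trends removed, and -0.74 to -0.61 (adjusted p = 0.034 to 0.20) with 1 library left out. The cause was not tested. Of the fixed set and the largest uncalled differences, 4 genes took the other sign: GSDMD (-0.17 with GC and length trends removed, -0.15 without both WT replicate 1 and IRF2KO replicate 2), B2M (0.06 without both), HLA-C (-0.30 to 0.06 with 1 library left out, 0.06 without WT replicate 3 and 0.03 without IRF2KO replicate 1) and TAP2 (0.07 with the mitochondrial share, 0.06 without WT replicate 1, 0.06 without IRF2KO replicate 2, -0.10 to 0.06 over all single omissions, 0.15 without both). Of the other 368 tested list members and markers that did not pass, 190 took the other sign in at least 1 alternative, and none was called in an alternative with the sign turned. Among the genes past the threshold, the fixed set and the largest uncalled differences, 17 besides IRF2 lost their call at least once and 14 gained one. With 3 libraries a group, genes under about 1 CPM rest on few counts.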

Other observations

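The IRF2KO_pIRF2 libraries, whose differences from the other groups were not tested here, gave these levels for genes that changed between IRF2KO and WT. CASP4 had 11.9, 14.5 and 14.0 CPM in IRF2KO_pIRF2, 2.32, 1.82 and 2.99 CPM in IRF2KO and 32.1, 23.9 and 24.3 CPM in WT. MT2A had 283, 280 and 272 CPM in IRF2KO_pIRF2, 447, 519 and 419 CPM in IRF2KO and 116, 126 and 137 CPM in WT, so that both genes lay between the other groups.

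SAMD9L had 3.87, 3.42 and 3.62 CPM in IRF2KO_pIRF2 and no count in IRF2KO, with 1.39, 1.37 and 0.822 CPM in WT. The IRF2KO_pIRF2 libraries lay above all WT libraries. Counts over IRF2 itself were 15.2, 18.1 and 18.4 CPM in IRF2KO_pIRF2, below those of the other groups. These genes were chosen after their values were seen.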
